A study of Mus musculus with 6 samples.

Results

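The hypoxia-inducible factor (HIF) subunits and the oxygen sensors that control them were examined in lungs of mice kept for 7 days in hypoxia, both mice lacking Nfat5 in endothelial cells and control mice. The 9 genes were those with the platform gene symbols Hif1a, Epas1, Hif3a, Arnt, Egln1, Egln2, Egln3, Vhl and Hif1an, out of 24704 named genes measured. Each had 1 probe set, and all 9 were tested with no filter on low values. The first group held 3 arrays from Nfat5(EC)-/- mice (EC knockout, replicates 1, 3 and 4), whose floxed Nfat5 was deleted in adulthood by 1 mg tamoxifen a day for 5 days. The second held 3 arrays from Nfat5fl/fl mice (control, replicates 1, 3 and 4), which received the solvent miglyol in place of tamoxifen. Genotype and tamoxifen therefore differed together. Both groups were kept in hypoxia. The design text gives male and female mice aged 10 to 12 weeks at treatment, used 2 to 3 weeks later. On these arrays Xist, an RNA made in female cells, was high on control replicate 1 alone (8.22). The sources used here give neither the sex of each animal nor the promoter that drove deletion. The design text names 4 mice for each group and excluded lungs with contaminating tissue or with inadequate expression responses to hypoxia. The arrays were thus selected in part on a response in which these genes take part, and with no normoxic array here the values do not measure induction by hypoxia.

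The HIF transcription factors pair an oxygen-regulated alpha subunit, encoded by Hif1a, Epas1 or Hif3a, with the constant beta subunit encoded by Arnt. When oxygen is plentiful, prolyl hydroxylases of the Egln family mark the alpha subunit, the Vhl protein binds the marked form, and a ubiquitin ligase directs its destruction. The asparaginyl hydroxylase made from Hif1an adds a separate mark that blocks binding of the coactivators made from Ep300 and Crebbp. In the lung Epas1 is prominent in endothelial cells and takes part in hypoxic pulmonary hypertension, and Egln1 and Egln3 are themselves induced by HIF. This control acts mainly on the protein, which the arrays did not measure.

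In EC knockout lungs the transcripts for the main HIF dimer were lower and that of 1 sensor was higher. Hif1a fell by 1.42 ± 0.31 log2 units, Epas1 fell by 0.99 ± 0.21 and Arnt fell by 1.01 ± 0.26, while Egln2 rose by 1.58 ± 0.18 (limma's moderated SE, n = 3 arrays per group). The other 5 genes did not pass an adjusted p of 0.05 (limma, Benjamini-Hochberg over 24704 genes). Of the 9 genes 1 was higher, against a background of 12.5% of all genes, and 3 were lower, against a background of 13.0%. In either direction 4 of 9 passed, against 25.5% of all genes. Brighter genes passed more often: with only genes at or above the median level tested, 4 of 8 members passed, against 5788 of 12352 genes. The groups did not overlap at 6 of the 9 genes, against 41.9% of all genes: 2 were apart upward, against 21.9%, and 4 downward, against 20.0%. The 9 genes had a median of −0.53 in log2 fold change, against 0.04 over all genes. The count higher was near the background, and the count in either direction was near that of genes at or above the median level. With 9 genes these shares describe the set and were not tested. With Xist in the fit, Hif1a at −1.27 ± 0.37 and Arnt at −1.05 ± 0.32 lost their calls at about the same size (limma, adjusted p = 0.0654 and 0.0725 in that order). With each array's snoRNA level in the fit all 4 calls were lost as the SEs grew. Hif1a then stood at −2.29 ± 1.27, Epas1 at −2.05 ± 0.82, Arnt at −2.11 ± 1.01 and Egln2 at 1.06 ± 0.75 (limma, adjusted p from 0.304 to 0.551).

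**Figure D1:**
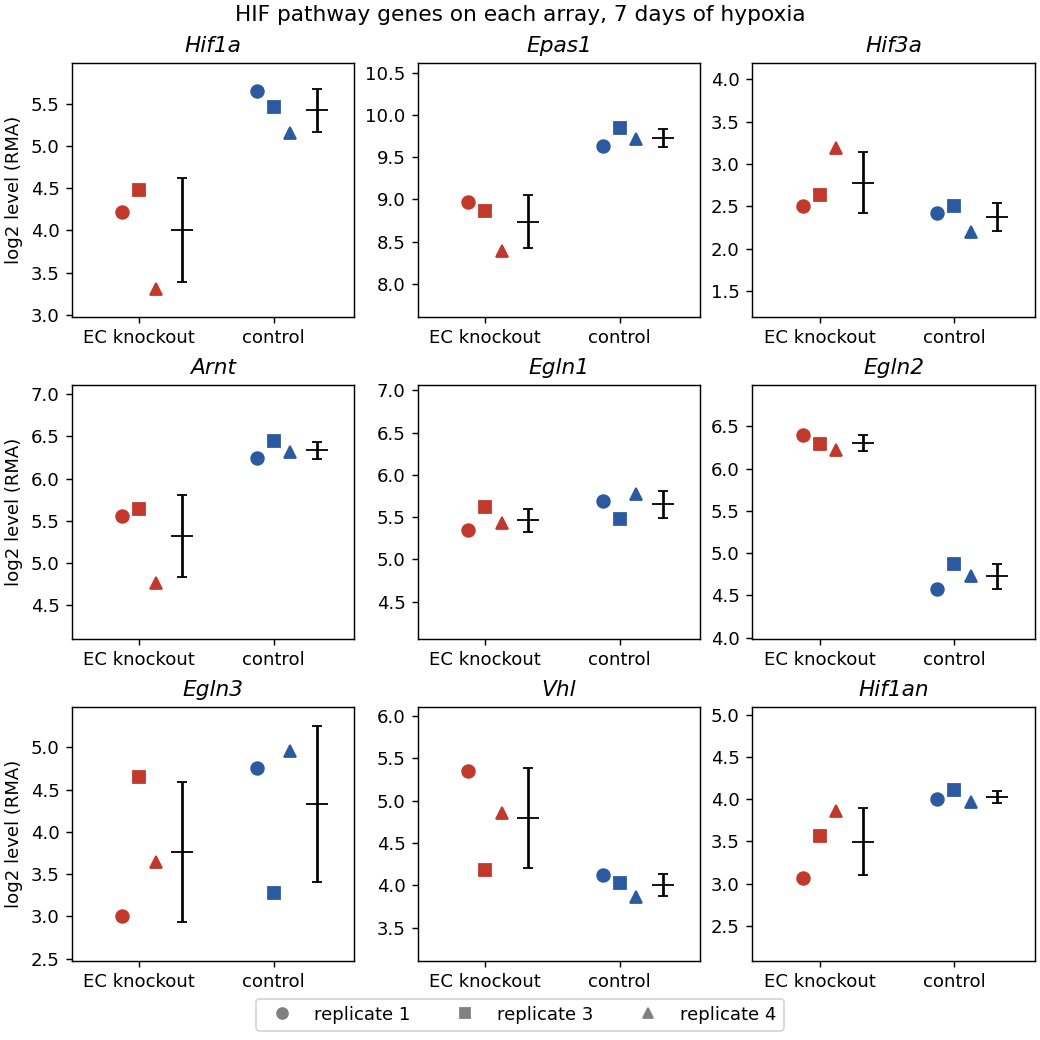
Log2 RMA level (y axis, 3 log2 units high in every panel) of the 9 genes on each array, EC knockout left and control right; symbols mark the replicate number and black bars the mean ± SD of 3 arrays. Hif1a, Epas1, Arnt and Hif1an lie lower and Egln2 and Vhl higher on all 3 knockout arrays than on all 3 control arrays, while the groups overlap at Hif3a, Egln1 and Egln3.

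Across the series the knockout differed broadly from the control. Nfat5 itself, the targeted transcription factor, had log2 values of 4.46, 4.48 and 3.89 in EC knockouts, against 6.65, 6.58 and 6.30 in controls, a log2 fold change of −2.23 ± 0.23 (limma, adjusted p = 0.00151). The sources used here do not say where its probes lie relative to the deleted part. The median level of snoRNAs per array was 6.43 to 7.43 in EC knockouts, against 4.01 to 4.20 in controls. Xist was 2.03 to 2.28 in EC knockouts, against 8.22 in control replicate 1 and 2.36 and 2.37 in control replicates 3 and 4. By this marker only control replicate 1 held female tissue, so sex was not balanced between the groups. The snoRNA level and the genotype cannot be told apart on these arrays. The lung markers of the labelled tissue were bright, with Sftpc at 11.25 to 12.24 in EC knockouts and 12.13 to 12.24 in controls. The mean level of 9 thymus genes was 2.56 to 2.68 in EC knockouts and 2.49 to 2.98 in controls, against an array median of 2.98. Labels do not say that arrays came from separate mice beyond naming replicates, so p-values measure the spread between these arrays.

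The starts of the genes are shown for the 3 members past the threshold that had a RefSeq promoter entry, and for Egln1 and Egln3, known targets of HIF. RefSeq windows (build GRCm38.p6) matched 8 of the 9 genes, and the 250 bases before a RefSeq start are printed 5′ to 3′ on the gene's strand. The Hif1a window lies inside the span of that gene (chr12:73901324-73947554), so its start is an internal one. Capitals mark ACGTG or GCGTG on either strand (read as CACGT and CACGC on the other), the core letters of the hypoxia response element that HIF binds.
Egln2 (chr7:27166803-27167052, minus strand): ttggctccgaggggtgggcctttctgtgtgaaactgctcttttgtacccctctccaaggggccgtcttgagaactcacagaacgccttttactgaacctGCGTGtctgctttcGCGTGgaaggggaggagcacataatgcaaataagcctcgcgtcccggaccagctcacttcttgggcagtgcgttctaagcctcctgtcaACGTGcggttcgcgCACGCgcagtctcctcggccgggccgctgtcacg
Hif1a (chr12:73907617-73907866, plus strand): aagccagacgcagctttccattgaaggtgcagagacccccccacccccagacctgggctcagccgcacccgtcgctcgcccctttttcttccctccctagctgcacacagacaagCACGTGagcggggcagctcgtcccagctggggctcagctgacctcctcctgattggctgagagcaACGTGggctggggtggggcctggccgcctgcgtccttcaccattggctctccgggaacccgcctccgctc
Arnt (chr3:95434140-95434389, plus strand): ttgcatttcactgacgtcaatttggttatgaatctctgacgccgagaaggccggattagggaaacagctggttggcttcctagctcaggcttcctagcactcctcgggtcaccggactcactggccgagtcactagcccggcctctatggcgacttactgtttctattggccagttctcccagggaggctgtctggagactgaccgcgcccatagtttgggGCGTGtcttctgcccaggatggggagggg
Egln1 (chr8:124949255-124949504, minus strand): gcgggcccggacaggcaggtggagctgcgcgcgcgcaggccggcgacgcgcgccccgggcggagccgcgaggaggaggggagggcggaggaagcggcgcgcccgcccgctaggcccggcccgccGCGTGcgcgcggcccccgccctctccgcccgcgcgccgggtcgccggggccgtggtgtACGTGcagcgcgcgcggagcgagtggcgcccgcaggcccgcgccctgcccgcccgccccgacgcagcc
Egln3 (chr12:54203875-54204124, minus strand): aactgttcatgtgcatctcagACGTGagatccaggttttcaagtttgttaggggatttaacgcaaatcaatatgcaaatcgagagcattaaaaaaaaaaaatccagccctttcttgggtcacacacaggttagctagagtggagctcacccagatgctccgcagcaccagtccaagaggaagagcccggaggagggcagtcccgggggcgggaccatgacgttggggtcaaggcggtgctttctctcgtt
Egln2, the gene that rose, held 1 ACGTG and 3 GCGTG matches in this window, and a second Egln2 start held 1 GCGTG. Hif1a held 3 ACGTG matches, of which a pair are the same CACGTG read on both strands, and no GCGTG. Arnt held 1 GCGTG, Egln1 held 1 of each and Egln3 held 1 ACGTG. Vhl and Hif1an held neither and Hif3a held 2 GCGTG. Among all 32851 windows 16.6% held ACGTG and 28.2% held GCGTG, against 4 and 5 of the 9 windows of these genes. TGGAAA, the core letters shared by NFAT sites, was in 18.6% of all windows and in those of Hif1a and the second Egln2 start. G and C made up 48.0% to 86.0% of these windows, against a median of 52.4% over all. A match describes letters and is not a binding site. Matches occurred both in genes that passed the threshold and in genes that did not.

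Among the alpha subunits, Hif1a, the broadly expressed form, was at 4.22, 4.48 and 3.31 in EC knockouts, against 5.65, 5.46 and 5.15 in controls (log2 values of replicates 1, 3 and 4, an order kept below). All knockout arrays lay below all control arrays, and knockout replicate 4 was lowest. The means were 4.00 ± 0.62 in EC knockouts and 5.42 ± 0.25 in controls (SD, n = 3 each), a 2.67-fold fall (limma, adjusted p = 0.0116). With control replicate 3 left out Hif1a stood at −1.40 and lost its call (limma, adjusted p = 0.0519), as it did at −1.30 with control replicate 1 left out (0.0571). In these whole-lung samples fewer cells of a type and less RNA per cell cannot be told apart.

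Epas1, which encodes HIF-2 alpha, was bright on every array, at 8.97, 8.86 and 8.38 in EC knockouts, against 9.63, 9.84 and 9.71 in controls. The groups did not overlap, and knockout replicate 4 was again lowest. The means were 8.74 ± 0.31 in EC knockouts and 9.73 ± 0.11 in controls (SD, n = 3 each), a 1.98-fold fall (limma, adjusted p = 0.0112), which lost its call without control replicate 3 (−0.93, adjusted p = 0.0564). Endothelial markers, genes of the cell type where Epas1 is prominent, moved both ways. Of 10 such markers 3 were higher and 5 lower, against 12.5% and 13.0% of all genes in that order. Their mean level was 6.98 to 7.31 in EC knockouts, against 7.55 to 7.67 in controls, and their median log2 fold change was −0.98. The markers that fell were the longer genes, of 42.9 kb (Cdh5) to 227 kb (Erg). Those that rose span 1.42 kb (Cldn5) to 36.1 kb (Eng), and the part of length was not tested. Cdh5 was at 9.28, 9.44 and 8.68 in EC knockouts, against 10.43, 10.97 and 10.54 in controls, whereas Eng was at 8.85, 8.51 and 9.23 in EC knockouts, against 7.63, 7.84 and 8.05 in controls. Of 6 alveolar type 2 markers 2 fell and 0 rose, against 13.0% and 12.5% of all genes in that order. Their mean level was 8.67 to 9.23 in EC knockouts, against 9.45 to 9.59 in controls. Medians of the other marker lists ran from −0.68 (ciliated airway) to 0.30 (pericyte) in log2 fold change. The part of these cell types in the fall of Epas1 was not tested.

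Hif3a, whose products include inhibitors of the other alpha subunits, was dim, at 2.51, 2.64 and 3.19 in EC knockouts, against 2.42, 2.51 and 2.19 in controls. The groups overlapped, and the log2 fold change of 0.41 did not pass (limma, adjusted p = 0.24; 95% interval −0.12 to 0.93). Its mean level ranked below the median of all genes.

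Arnt, the shared beta subunit, was at 5.56, 5.65 and 4.77 in EC knockouts, against 6.24, 6.44 and 6.31 in controls. As at Hif1a and Epas1 the groups did not overlap and knockout replicate 4 was lowest. The means were 5.32 ± 0.48 in EC knockouts and 6.33 ± 0.10 in controls (SD, n = 3 each), a 2.01-fold fall (limma, adjusted p = 0.0208). The call was the least stable of the 4: it was lost with control replicate 1 (limma, adjusted p = 0.064), 3 (0.0852) or 4 (0.0597) left out, and with the trend of level with gene length removed (−0.69, adjusted p = 0.0608). Without knockout replicate 4 the log2 fold changes were −1.07 for Hif1a, −0.81 for Epas1 and −0.73 for Arnt, each past the threshold (limma, adjusted p = 0.0149, 0.0225 and 0.0311 in that order). The change of Hif1a minus that of Epas1 within arrays was −0.43 log2 units, within the spread of the arrays (exact permutation test over 20 assignments, two-sided p = 0.30, adjusted p = 0.30 over 3 such comparisons).

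**Figure D2:**
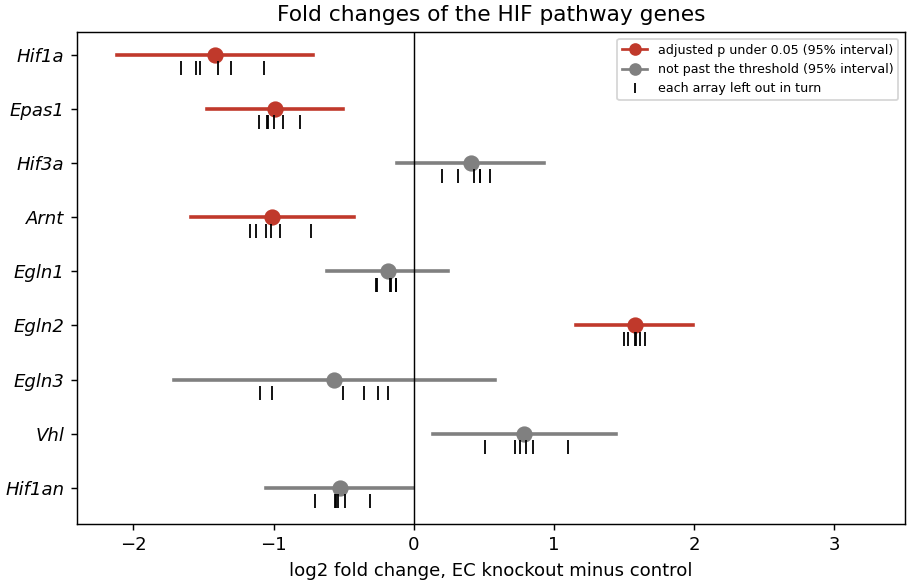
Log2 fold change, EC knockout minus control (x axis), of each gene with its 95% interval from limma; black ticks give the value with each of the 6 arrays left out in turn. Egln2 stays between 1.50 and 1.65, and no gene changes sign when an array is left out.

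Of the prolyl hydroxylases Egln2 passed the threshold and Egln1 and Egln3 did not. Egln2, which encodes PHD1, was at 6.40, 6.29 and 6.22 in EC knockouts, against 4.58, 4.87 and 4.73 in controls. These were tight groups far apart: the means were 6.30 ± 0.09 in EC knockouts and 4.73 ± 0.15 in controls (SD, n = 3 each), a 2.98-fold rise (limma, adjusted p = 0.00188). The fold change ranked at the 98.7th percentile of all genes. Its pooled SD of 0.12 was at the 6.6th percentile of all genes, whose median was 0.28. The rise passed the threshold with each of the 6 arrays left out, at 1.50 to 1.65 and adjusted p of 0.0034 to 0.017. Rab4b, a small GTPase gene that is the next gene 1.63 kb from Egln2 at higher coordinates, also rose: it was at 7.02, 6.58 and 6.96 in EC knockouts, against 5.27, 5.47 and 5.76 in controls, a log2 fold change of 1.35 ± 0.22 (limma, adjusted p = 0.00381). Cyp2t4, the neighbour 0.094 kb away on the other side, did not pass, at 2.25, 2.32 and 2.33 in EC knockouts, against 1.98, 1.99 and 2.02 in controls. It was dim, near the arrays' lower quartile of 2.02, and all its knockout arrays lay above its control arrays. Neighbours of other members did not follow them in this way. Tmem247 (0.61) was higher beside Epas1, which fell. Ndufb8 (0.81) and Ppp5c (0.74) were higher beside Hif1an and Hif3a, which did not pass (limma, adjusted p of the neighbours 0.0367 to 0.0427). The other measured neighbours did not pass.

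Egln1, which encodes PHD2, the main prolyl hydroxylase that limits HIF, was at 5.35, 5.61 and 5.43 in EC knockouts, against 5.69, 5.48 and 5.78 in controls. The groups overlapped, and the log2 fold change of −0.19 did not pass (limma, adjusted p = 0.53; 95% interval −0.62 to 0.24). The interval excludes a change as large as that of Egln2. Within arrays the change of Egln2 minus that of Egln1 was 1.76 log2 units with no overlap of the groups, at a two-sided p = 0.10 by exact permutation test (adjusted p = 0.15 over 3 comparisons). This is the smallest p that 3 against 3 arrays allow, and the comparison was chosen after the values were seen.

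Egln3, which encodes PHD3 and is strongly induced by HIF, varied most. It was at 3.00, 4.65 and 3.64 in EC knockouts, against 4.76, 3.28 and 4.95 in controls. Knockout replicate 3 reached the control values and control replicate 3 fell among the knockouts, and the pooled SD of 0.87 was at the 98.9th percentile of all genes. The log2 fold change of −0.57 did not pass (limma, adjusted p = 0.466; 95% interval −1.71 to 0.58). It was −1.09 without control replicate 3 and −0.19 without knockout replicate 1, neither past the threshold. The interval reaches past the falls of Hif1a, Epas1 and Arnt, so a fall of their size in Egln3 was not excluded. The change of Egln2 minus that of Egln3 was 2.14 log2 units, again at the smallest p of 0.10 (exact permutation test, two-sided, adjusted p = 0.15).

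Vhl, which encodes the part of the ubiquitin ligase that recognises hydroxylated HIF, was at 5.35, 4.18 and 4.85 in EC knockouts, against 4.12, 4.03 and 3.87 in controls. All knockout arrays lay above all control arrays, but knockout replicate 3 did so by little, and the log2 fold change of 0.79 ± 0.29 did not pass (limma, adjusted p = 0.0767). Without knockout replicate 3 it was 1.10 and passed (adjusted p = 0.0137). Hif1an, which encodes the asparaginyl hydroxylase, was at 3.07, 3.57 and 3.85 in EC knockouts, against 4.01, 4.11 and 3.97 in controls. Here all knockout arrays lay below all control arrays, and the log2 fold change of −0.53 ± 0.23 did not pass (limma, adjusted p = 0.131). The knockouts spread more than the controls at both genes, with SDs of 0.59 against 0.13 at Vhl and 0.40 against 0.07 at Hif1an.

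The members past the threshold also differed in gene length, a property along which the whole series shifted. Length is the span of the gene in GRCm38.p6. Egln2 spans 8.14 kb, and the 3 that fell span 46.2 kb (Hif1a), 62.9 kb (Arnt) and 79.5 kb (Epas1). Of all protein-coding genes sorted into 5 equal classes by length, the class of Egln2 and Vhl had 20.7% higher and 5.66% lower and a median of 0.22 in log2 fold change. The class of Hif1a, Hif3a and Egln1 had 10.4% higher and 23.6% lower, and the longest class, of Epas1 and Arnt, had 5.41% higher and 31.5% lower and a median of −0.33. Egln1 and Hif3a did not pass while Hif1a in the same class did. Hif1an and Egln3, of 13.4 kb and 24.9 kb, had negative values that did not pass, in a class whose median was 0.06. The part of gene length in these changes was not tested. With the trend removed from each array, Egln2 was at 1.31 (limma, adjusted p = 0.00348), Hif1a at −1.18 (adjusted p = 0.0184) and Epas1 at −0.63 (adjusted p = 0.0489), while Arnt at −0.69 lost its call (adjusted p = 0.0608).

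**Figure D3:**
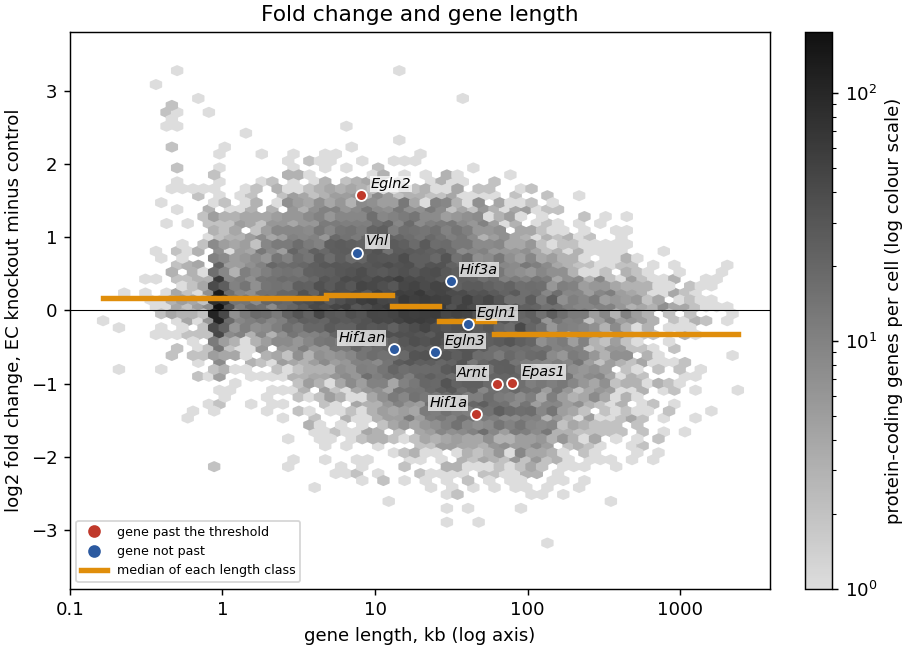
Log2 fold change, EC knockout minus control (y axis), against gene length in kb (log x axis) for protein-coding genes (grey cells, darker for more genes), with the median of each length class (orange) and the 9 HIF pathway genes (red past the threshold, blue not past). The medians are 0.17 in the shortest class and −0.33 in the longest; Egln2 at 1.58 lies above, and Hif1a at −1.42 below, the median of its own class.

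Genes with the profile most like those of the clearest members were found by the root mean square difference in log2 values, each gene centred on its own mean over 6 arrays, among 11278 protein-coding genes at or above the median level. The nearest to Egln2 were Scaf1 (0.048 log2 units), Mon1a (0.088) and Aamp (0.10). Scaf1 was at 5.15, 5.03 and 5.01 in EC knockouts, against 3.40, 3.58 and 3.59 in controls. The nearest to Epas1, the falling member of smallest p, were Xpo7 (0.053), Ppp1r9a (0.063) and Sh2d4a (0.065). Xpo7 was at 4.60, 4.44 and 4.00 in EC knockouts, against 5.36, 5.56 and 5.36 in controls. Its order of arrays within the knockouts matched that of Epas1, which the choice by nearness over these same arrays favours.

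Vhl works in a ligase with Elob, Eloc, Cul2 and Rbx1. Of these 4 genes 2 were lower and 0 higher, against 13.0% and 12.5% of all genes in that order. The scaffold Cul2 was at 2.92, 3.86 and 2.93 in EC knockouts, against 4.87, 4.98 and 4.83 in controls, a log2 fold change of −1.66 ± 0.27 (limma, adjusted p = 0.00401). The adaptor Eloc was at 2.24, 3.86 and 3.48 in EC knockouts, against 4.94, 4.40 and 4.54 in controls, and stood at −1.43 ± 0.38 (adjusted p = 0.0254 with limma). It lost its call when control replicate 1 (0.103), 3 (0.066) or 4 (0.065) was left out. Elob, its binding partner, had a positive log2 fold change of 0.65 that did not pass, and the ring protein gene Rbx1 stood at 0.05.

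Coactivators that HIF recruits, with the CITED proteins that compete for them, were lower at 4 of 10 and higher at 2. The shares over all genes were 13.0% lower and 12.5% higher. The acetyltransferases whose binding Hif1an controls both fell: Ep300 was at 4.56, 5.22 and 4.13 in EC knockouts, against 6.56, 6.60 and 6.51 in controls (−1.92 ± 0.27), and Crebbp was at 6.09, 6.54 and 5.54 in EC knockouts, against 7.45, 7.60 and 7.28 in controls (−1.39 ± 0.27). Cdk8, a Mediator kinase, stood at −2.29 ± 0.37. Cited4, a competitor for these coactivators, rose by 1.09 ± 0.23, a call lost without control replicate 3 (adjusted p = 0.0527). Adjusted p of these 4 genes was 0.00276 to 0.00986 with limma.

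Of 21 measured regulators of HIF and hydroxylase stability 6 were higher and 6 lower, against 12.5% and 13.0% of all genes in that order. Of the 81 genes in this and the other HIF pathway lists, 71 were at or above the median level. With only genes at that level tested, 36 of these 71 passed in either direction, against 5788 of 12352 genes. The count over the lists was thus near that of genes at or above the median level. This comparison was not made for each list alone. Fkbp8, which promotes turnover of the Egln1 protein, rose by 1.75 ± 0.20, and Wtip, a LIM scaffold that can bring hydroxylase and Vhl together, rose by 1.42 ± 0.18. Wsb1, a ligase that targets Vhl, stood at −1.57 ± 0.21, and Siah1a, a ligase for the hydroxylases, stood at −1.35 ± 0.22 (limma, adjusted p of the 4 genes 0.00177 to 0.00385). Siah1a has the close copy Siah1b, which did not pass, and the sources used here do not say how the probes separate them. Siah2, of the same family, went the other way at 0.91 ± 0.22 (limma, adjusted p = 0.0177). It lost its call without control replicate 1 (0.0639) or 3 (0.0841). Limd1 at −0.63 and Ajuba at 0.45, listed with Wtip, did not pass.

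Other genes of the same protein family and enzyme class also went both ways. Of 11 measured bHLH-PAS genes 2 were higher and 3 lower, against 12.5% and 13.0% of all genes in that order. In mean level 3 of the 11 were below the arrays' lower quartile of 2.02. Clock, a circadian factor, was at 5.48, 5.77 and 5.12 in EC knockouts, against 7.82, 7.54 and 7.62 in controls (−2.20 ± 0.22; limma, adjusted p = 0.00143). Ahr, the dioxin receptor that also pairs with Arnt, stood at −0.94 ± 0.20 (adjusted p = 0.0108; lost without control replicate 3 at 0.0557 and without control replicate 1 at 0.0504), and Arntl (Bmal1), the partner of Clock, at −0.83 ± 0.19 (adjusted p = 0.0141; lost without control replicate 3 at 0.0589 and without control replicate 4 at 0.0522). Npas1 rose by 0.81 ± 0.21 (adjusted p = 0.0219; lost without control replicate 1 or 3 or knockout replicate 4). It was dim, at 2.73, 2.80 and 3.00 in EC knockouts, against 1.76, 2.04 and 2.30 in controls, which lie around that lower quartile. Of 21 other oxygen-dependent dioxygenases 5 rose and 7 fell, against 12.5% and 13.0% of all genes in that order. Their median was 0.15 in log2 fold change. The histone demethylase Kdm5a stood at −1.58 ± 0.19, the DNA dioxygenase Tet2 at −1.96 ± 0.32 and the ribosomal oxygenase Riox2 at −1.26 ± 0.18, while the histone demethylase Kdm4b rose by 1.35 ± 0.26 (limma, adjusted p of the 4 genes 0.00191 to 0.00658).

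Canonical targets of HIF were lower at 3 of 14 and higher at 0, against 13.0% and 12.5% of all genes in that order. Their median was −0.26 in log2 fold change. Bnip3, of mitochondrial clearance, stood at −0.98 ± 0.24, Pdk1, which restrains pyruvate entry to mitochondria, at −0.63 ± 0.19, and Ldha, of lactate production, at −0.71 ± 0.22 (limma, adjusted p = 0.0178, 0.0383 and 0.0437 in that order). Bnip3 lost its call without control replicate 3 (0.0549) or 4 (0.0614), Pdk1 without any 1 of the 6 arrays (0.0514 to 0.138) and Ldha without any array but knockout replicate 4 (0.0764 to 0.135). The other 11, Vegfa, Slc2a1 and Car9 among them, did not pass. The largest change in the list was upward, Pgk1 at 1.44 ± 0.65 with overlapping groups (limma, adjusted p = 0.14). The groups lay apart upward at 2 of the 14, Slc2a1 (0.67) and Ndrg1 (0.31), and downward at 4.

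**Figure D4:**
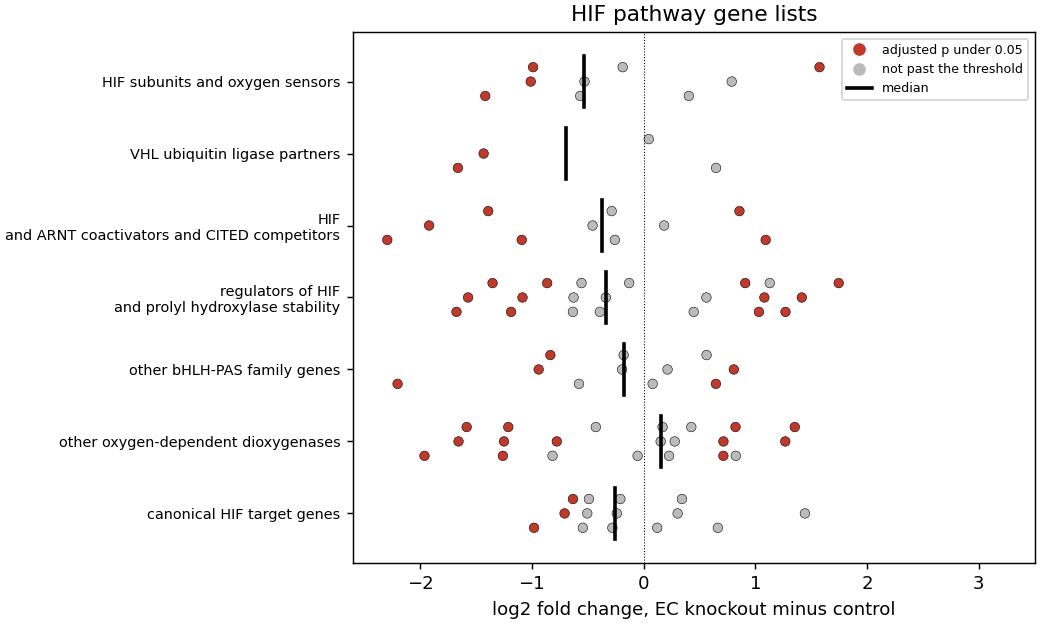
Log2 fold change, EC knockout minus control (x axis), of each gene in the HIF pathway lists (rows); red points passed an adjusted p of 0.05 and black bars mark list medians. Each list spreads to both sides of 0, and the medians lie between −0.69 and 0.15.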

How the data were processed

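Biotin-labelled cRNA from whole perfused lung was hybridised to 6 single-colour Affymetrix arrays. The authors deposited log2 expression values per probe set, made with RMA per the submitters' processing notes, with common quantiles (median 2.98 on every array). Detection calls were not used, and precision is limited by how few arrays there are. Of 25428 probe sets 24705 had 1 platform symbol and 723 were unnamed; the brighter was kept where a symbol had several, leaving 24704 genes, with length and biotype from RefSeq (GRCm38.p6).

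EC knockout and control arrays were compared with limma 3.58.1 in R 4.3.3 (lmFit, eBayes; no filter, no covariate), with Benjamini-Hochberg adjustment and a threshold of 0.05, after a test on simulated data. Named genes were the 9 members, Nfat5, up to 4 of smallest p in each list, and the 3 nearest profiles. The neighbours shown, genes shown as cell markers, Siah2, list members that did not pass, and the comparisons within arrays were chosen after their values were seen. Members and lists were chosen with earlier results of these data known. Genes listed but not measured under a matching symbol were not analysed here. The replicate numbers are not said to pair animals, so no block was used. Correlations of deviations were 0.06, −0.01 and 0.0038 at the same number, and −0.108 to 0.106 at different numbers. With 3 arrays per group these cannot show whether animals were paired. Alternatives covered filters, scaling, covariates, thresholds and each array left out.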

Additional observations from a re-analysis of the deposited data

How the results depend on the processing

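The 4 calls among the 9 genes were the same in number under filters on level, with probe sets averaged, with unnamed ones added, protein-coding genes only, renewed or median scaling, limma's intensity trend and array weights. Several of these settings could hardly differ. Averaging leaves genes with 1 probe set as they are, and renewed scaling met arrays that already had common quantiles. Filters, added probe sets and the intensity trend left the fold changes unchanged and altered only SEs and adjustment. With the replicate block, 4 of the 9 genes, 36 of the 81 pathway genes and 6082 of all genes passed, against 4, 40 and 6292 without it, and it changed no call among the 9 genes. With Xist as a covariate 2 of the 9 genes (Egln2 and Epas1), 19 pathway genes and 2827 of all genes passed, and at an adjusted p under 0.01 the counts were 1 (Egln2), 17 and 2560. Removing the length trend left 3 of the 9 genes past the threshold. With a term for each array's snoRNA level, at which the groups lie apart, limma called 0 of the 9 genes (1 at an unadjusted p under 0.05), 0 of the pathway genes (19 unadjusted) and 0 of all genes (3576 unadjusted). Egln2 then stood at 1.06 (adjusted p = 0.551) and Hif1a at −2.29 (adjusted p = 0.451). In the same setting the signs turned for 4 of the 9 genes, none of them past the threshold with or without that term: Egln1 (0.31), Egln3 (2.82), Vhl (−1.29) and Hif1an (1.17). They turned too for Eloc (2.55), Cdk8 (1.40), Siah2 (−0.32), Jmjd4 (−0.52) and Ldha (0.62), none past the threshold with the term. With 1 array left out, 1 to 5 of the 9 genes, 17 to 39 pathway genes and 2882 to 6155 of all genes passed, fewest without control replicate 3, where Egln2 alone of the 9 remained. Without control replicate 1, 2 of the 9 genes and 3141 of all genes passed. Of 188 alternative values for the 9 genes, 165 kept direction and side of the threshold, 16 lost and 2 gained the call, and 5 changed sign with no call on either side, 4 of them with the snoRNA term and 1 (Egln1, 0.02) with the length trend removed. Only the 4 called genes could lose a call. Of 21 settings each, Arnt lost it in 7, Hif1a in 5, Epas1 in 3 and Egln2 in 1. The cause of these changes was not tested. Without detection calls, changes in dim genes such as Hif3a and Npas1 could not be told from background.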
